A study of Mus musculus with 12 samples.

Results

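The genes described here code for the G protein-coupled receptors through which neuromodulators act on neurons: the receptors for dopamine, serotonin, noradrenaline, acetylcholine, somatostatin, galanin, neuropeptide Y, opioid peptides and nociceptin, tachykinins, prostaglandin E2, adenosine and endocannabinoids. They were chosen by gene symbol alone, which gave 60 of the 23079 genes in the table, in 19 families by ligand and G protein. Of these 60 genes, 38 passed the filter on low counts and were tested, and 22 did not and are described by their levels. The D1 dopamine receptor is listed in the table as Drd1a, which the pattern of symbols does not take, so it is not among the 60. RNA was sequenced from pontine nucleus neurons, the hindbrain neurons that carry signals from the cortex to the cerebellum, of CD-1 mouse embryos at stage E18.5. Neurons carrying a genetic label were microdissected and sorted by FACS, 2000 cells to a replicate. The reference group, Math1tdTomato (n = 6), has the tdTomato label tied to Math1, the gene Atoh1, which marks the rhombic lip lineage that gives rise to pontine neurons. The Hoxa5tdTomato group (n = 3) has the label tied to Hoxa5, a homeobox gene of the hindbrain and spinal cord, and its columns name a Hoxa5 cre. The Math1Hoxa5-IRES-GFP group (n = 3) has columns that name Math1 together with a Cag, lsl and Hoxa5 allele, where lsl is the usual short form for a stop cassette that Cre removes. The labels give neither a time of recombination nor whether a replicate was 1 embryo or a pool. The columns of the references fall into 3 that name creErt2 and 3 that name tdT.

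A neuromodulator receptor passes its signal to a heterotrimeric G protein. Receptors coupled to Gs or Golf raise cyclic AMP through adenylyl cyclases, those coupled to Gi or Go lower it and open GIRK potassium channels, and those coupled to Gq act through phospholipase C beta. In adult brain the pontine nuclei receive serotonergic, noradrenergic and cholinergic fibres in addition to their cortical input, and in most neurons modulators set excitability and transmitter release more than they carry fast signals.

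Total counts ran from 9973484 to 13302076 in the Hoxa5tdTomato and creErt2 reference libraries and from 22355961 to 29820776 in the Math1Hoxa5-IRES-GFP and tdT reference libraries, so depth cannot be told apart from these column-name sets. The names do not tie either set of references to a condition. Levels are given within a gene as CPM, read counts relative to the TMM-scaled library size, and between genes as RPKM, which also divides by the gene length in the table. A floor of 3 counts corresponded to 0.107 to 0.274 CPM. Math1Hoxa5-IRES-GFP library 3 stood apart from the others, with 13074 genes and 27 receptor genes with a count. The other 11 libraries had 14779 to 16290 genes and 34 to 47 receptor genes with a count. Correlations of log2 CPM between libraries ran from 0.890 to 0.946 within Math1Hoxa5-IRES-GFP and from 0.955 to 0.967 within the other column groups. Hoxa5 itself was at 127, 222 and 119 CPM in the Hoxa5tdTomato libraries and at 4.35 to 32.2 CPM in the references, with a median of 8.71 CPM. In the libraries labelled Math1Hoxa5-IRES-GFP it was at 9.73, 16.8 and 82.0 CPM, so that libraries 1 and 2 lay within the range of the references and did not bear out their label for this gene. Whether reads from the Cag, lsl and Hoxa5 allele were counted toward Hoxa5 is not given in the sources used here. Fitted with edgeR's quasi-likelihood test and Benjamini-Hochberg adjustment over 14732 genes, Hoxa5 was 3.46 ± 0.59 log2 units higher in Hoxa5tdTomato than in the reference (standard error, adjusted p = 0.00712; 0.0698 with the creErt2 references only; 0.0693 without Hoxa5tdTomato library 2) and 1.35 ± 0.59 log2 units apart in Math1Hoxa5-IRES-GFP (adjusted p = 0.255). Directions for that group are therefore directions of the libraries so labelled.

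Cnr1, the Gi-coupled CB1 cannabinoid receptor that sits mostly on nerve terminals, had the highest level of the 60 genes in every library. It was at 114 to 184 RPKM in the references, 81.6, 115 and 114 RPKM in Hoxa5tdTomato and 97.1, 141 and 173 RPKM in Math1Hoxa5-IRES-GFP, and made up 36.1% to 61.3% of the summed RPKM of the receptor genes of a library. The next 9 genes by median RPKM were Chrm2, Oprl1, Sstr1, Htr7, Ptger1, Chrm3, Adora1, Sstr2 and Adra2a, with medians over the 12 libraries from 15.1 RPKM down to 5.11 RPKM. The order among them was not firm. Chrm2, the Gi-coupled M2 muscarinic receptor, averaged 16.4 ± 4.07 RPKM in the references (SD, n = 6), and Oprl1, the Gi-coupled nociceptin receptor, 14.7 ± 7.18 RPKM, a gap smaller than their spread. Sstr1, a Gi-coupled somatostatin receptor, averaged 12.5 ± 4.23 RPKM there. Below these 3 came Htr7, a Gs-coupled serotonin receptor, at 6.76 ± 3.12 RPKM, Ptger1, the EP1 receptor for prostaglandin E2, at 7.73 ± 1.19 RPKM, and Chrm3, the Gq-coupled M3 receptor, at 8.84 ± 3.06 RPKM. Adora1, the Gi-coupled A1 adenosine receptor, averaged 5.37 ± 1.98 RPKM, and Adra2a, the Gi-coupled alpha2A adrenoceptor, 6.31 ± 2.41 RPKM; neighbours among these 5 did not differ beyond their SDs. Over all 12 libraries 22 receptor genes had a mean of at least 1 RPKM, and 17 had a count in every library. Drd3, Npy6r and Tacr2 were at 0 in all 12. The 3 beta adrenoceptors, the delta and kappa opioid receptors and the prostaglandin receptors Ptger2 and Ptger4 were among the 22 genes below the filter, and none of those 7 exceeded 0.919 RPKM in any library.

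**Figure D1:**
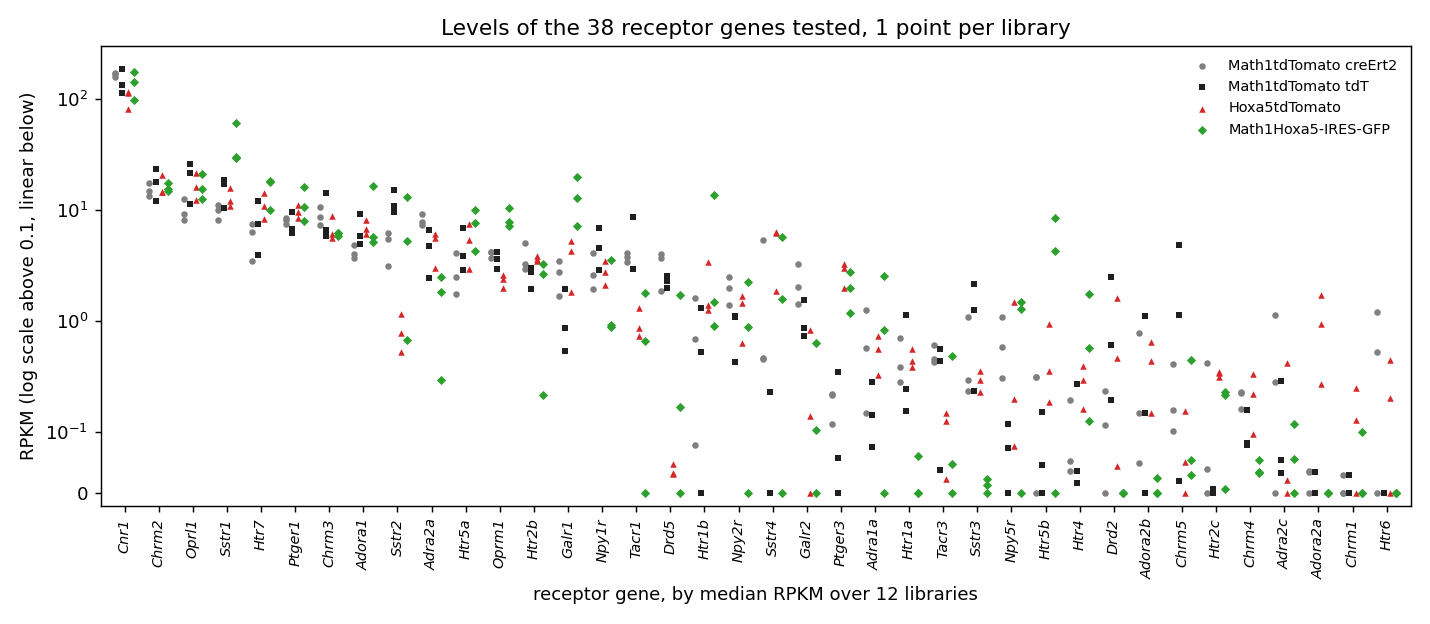
RPKM of the 38 receptor genes tested in each of the 12 libraries, on an axis that is logarithmic above 0.1 and linear below, with genes ordered by their median. Cnr1 lies above 80 RPKM in every library, and the spread between libraries of 1 group widens toward the right, where several genes are at 0 in some libraries.

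In the Hoxa5tdTomato neurons, 1 receptor gene was higher and 2 were lower than in the Math1tdTomato reference: the prostaglandin E2 receptor Ptger3 rose, and the dopamine receptor Drd5 and the somatostatin receptor Sstr2 fell. These were 3 of 38 receptor genes tested, against 1.73% of all 14732 genes called in this comparison. Of all genes, 0.842% were higher and 0.889% lower. Among the 3, Drd5 passed the filter on low counts through the references, where it is high. The median fitted log2 difference was 0.15 for the receptor genes and 0.0049 for all genes. Each reference set was then fitted as a group of its own, and Hoxa5tdTomato was compared with the creErt2 references only. None of the 38 passed (0 calls), while 0.557% of all genes were called, although all 3 genes kept their direction. At an unadjusted edgeR p under 0.05 there were 8 of the 38, against 8.91% of all genes. DESeq2 called 4 of 36 receptor genes in the comparison with all references, against 4.57% of all genes it tested. They were these 3 and Adora2a, which is described by its counts below and not read against that share.

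Ptger3 codes for EP3, a mainly Gi-coupled receptor for prostaglandin E2. It was at 8.98, 13.5 and 14.7 CPM in Hoxa5tdTomato, at 9.03, 5.40 and 12.4 CPM in Math1Hoxa5-IRES-GFP, and at 0 to 1.57 CPM in the 6 references, with a median of 0.755 CPM. Every library of both conditions was above every reference. The fitted difference from the reference was 4.10 ± 0.79 log2 units for Hoxa5tdTomato (edgeR, adjusted p = 0.0141) and 3.63 ± 0.78 log2 units for Math1Hoxa5-IRES-GFP (adjusted p = 0.0200), and these 2 comparisons share their references. With the references split the differences were 3.88 (adjusted p = 0.157) and 3.84 log2 units (adjusted p = 0.109). Leaving out any 1 Hoxa5tdTomato library ended the first call (adjusted p from 0.0621 to 0.0891), and leaving out creErt2 reference 2 ended the second (0.0538). The 2 conditions differed by 0.47 ± 0.90 log2 units (adjusted p = 0.804). Of the other receptors for prostaglandin E2, Ptger1 was at a similar level in all groups, with fitted differences below 1 log2 unit, and Ptger2 and Ptger4 were at or near 0.

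Drd5 codes for the D5 dopamine receptor, which is Gs-coupled like D1. It was at 5.24 to 11.1 CPM in the 6 references, with a median of 6.68 CPM, and at 0.0889, 0.135 and 0.0915 CPM in Hoxa5tdTomato, where the 3 libraries held 1, 2 and 1 counts. Math1Hoxa5-IRES-GFP libraries were at 0.466, 4.77 and 0 CPM, also below every reference but spread widely. The difference between Hoxa5tdTomato and the reference was -6.06 ± 1.36 log2 units (edgeR, adjusted p = 0.0309), and that between Math1Hoxa5-IRES-GFP and the reference was -2.11 ± 1.02 (adjusted p = 0.312; 0.0360 without its library 2). With the references split the first value was -6.29 (adjusted p = 0.0774). Drd5 was above the filter's cutoff of 0.561 CPM in 6 references, 1 Math1Hoxa5-IRES-GFP library and 0 Hoxa5tdTomato libraries. It thus passed the filter through the references, where it is high, so that its test depends in part on the level tested. Leaving out any 1 Hoxa5tdTomato library, or any 1 reference other than creErt2 reference 2, ended the call (adjusted p from 0.0510 to 0.193). Of the other dopamine receptors, Drd2, the Gi-coupled D2 receptor, was at 0 in the 3 Math1Hoxa5-IRES-GFP libraries and at 123 counts over the references, at least 24.4-fold lower against a floor of 3 counts over the group, but did not pass edgeR's test (adjusted p = 0.133). Of these 123 counts 84 were in tdT reference 2, and the bound without that library was 9.74-fold. Drd1a, outside the 60 genes, was at 0 to 4.63 CPM in the references and 2.22 to 7.59 CPM in Hoxa5tdTomato (adjusted p = 0.750). Exons of Drd5 overlap an antisense gene, Gm26560, in GENCODE M21, and whether the counting used strand is not given in the sources used here.

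Sstr2, a Gi-coupled somatostatin receptor, was at 4.35 to 21.2 CPM in the references, with a median of 10.9 CPM, and at 1.60, 1.08 and 0.732 CPM in Hoxa5tdTomato, below every reference. The references themselves were split, with 4.35 to 8.61 CPM in the creErt2 columns and 13.2 to 21.2 CPM in the tdT columns. The fitted difference was -3.36 ± 0.83 log2 units against all references (edgeR, adjusted p = 0.0472) and -2.58 against the creErt2 references (adjusted p = 0.253). The call was lost without any 1 Hoxa5tdTomato library, any 1 reference other than creErt2 reference 2, or Math1Hoxa5-IRES-GFP library 2 (adjusted p from 0.0544 to 0.227), and with DESeq2 size factors (0.0531) or library sizes (0.0576) in place of TMM. Math1Hoxa5-IRES-GFP libraries were at 0.931, 7.24 and 17.9 CPM and spanned the range of both other groups.

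The windows around the RefSeq starts of the 3 genes called in Hoxa5tdTomato are shown for their sequence context, each from 250 bases before to 50 bases after the start on the plus strand (RefSeq, GRCm38.p6). Ptger3 lies at chr3:157566626-157566925, Drd5 at chr5:38319259-38319558 and Sstr2 at chr11:113619077-113619376. Capitals mark matches, on either strand, to the cyclic AMP response element TGACGTCA, to the Hox and Pbx motif TGATNNAT or to the homeodomain core TAAT. The Sstr2 window holds 1 TGACGTCA, 58 bases before the start, a motif found in 1.79% of the 32851 mouse promoter windows of this length. The Drd5 window holds 1 TAAT on the minus strand, 3 bases before the start, a motif found in 58.0% of all windows. TGATNNAT, found in 8.85% of all windows, is in none of the 3, and the Ptger3 window holds no match. A match describes the letters of the window only. Among the 57 windows of the 45 receptor genes with a usable entry, 1 held TGACGTCA (1.75%), 6 held TGATNNAT (10.5%) and 25 held TAAT (43.9%).
Ptger3: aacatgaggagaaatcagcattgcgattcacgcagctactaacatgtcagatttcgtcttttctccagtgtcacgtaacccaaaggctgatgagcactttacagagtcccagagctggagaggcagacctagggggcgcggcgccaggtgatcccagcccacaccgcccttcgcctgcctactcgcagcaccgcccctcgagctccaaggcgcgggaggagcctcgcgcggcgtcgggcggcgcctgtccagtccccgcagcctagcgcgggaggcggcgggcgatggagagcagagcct
Drd5: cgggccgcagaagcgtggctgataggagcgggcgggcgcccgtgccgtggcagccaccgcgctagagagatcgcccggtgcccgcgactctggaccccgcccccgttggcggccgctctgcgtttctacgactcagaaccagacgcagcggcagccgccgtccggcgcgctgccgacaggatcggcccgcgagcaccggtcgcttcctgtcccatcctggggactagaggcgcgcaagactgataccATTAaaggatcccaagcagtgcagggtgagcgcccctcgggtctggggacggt
Sstr2: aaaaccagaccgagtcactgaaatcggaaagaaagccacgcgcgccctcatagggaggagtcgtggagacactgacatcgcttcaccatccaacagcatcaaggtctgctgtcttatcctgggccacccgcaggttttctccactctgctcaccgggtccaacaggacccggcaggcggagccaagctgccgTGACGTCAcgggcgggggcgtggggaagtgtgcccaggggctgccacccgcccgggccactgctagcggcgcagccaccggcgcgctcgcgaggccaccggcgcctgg

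**Figure D2:**
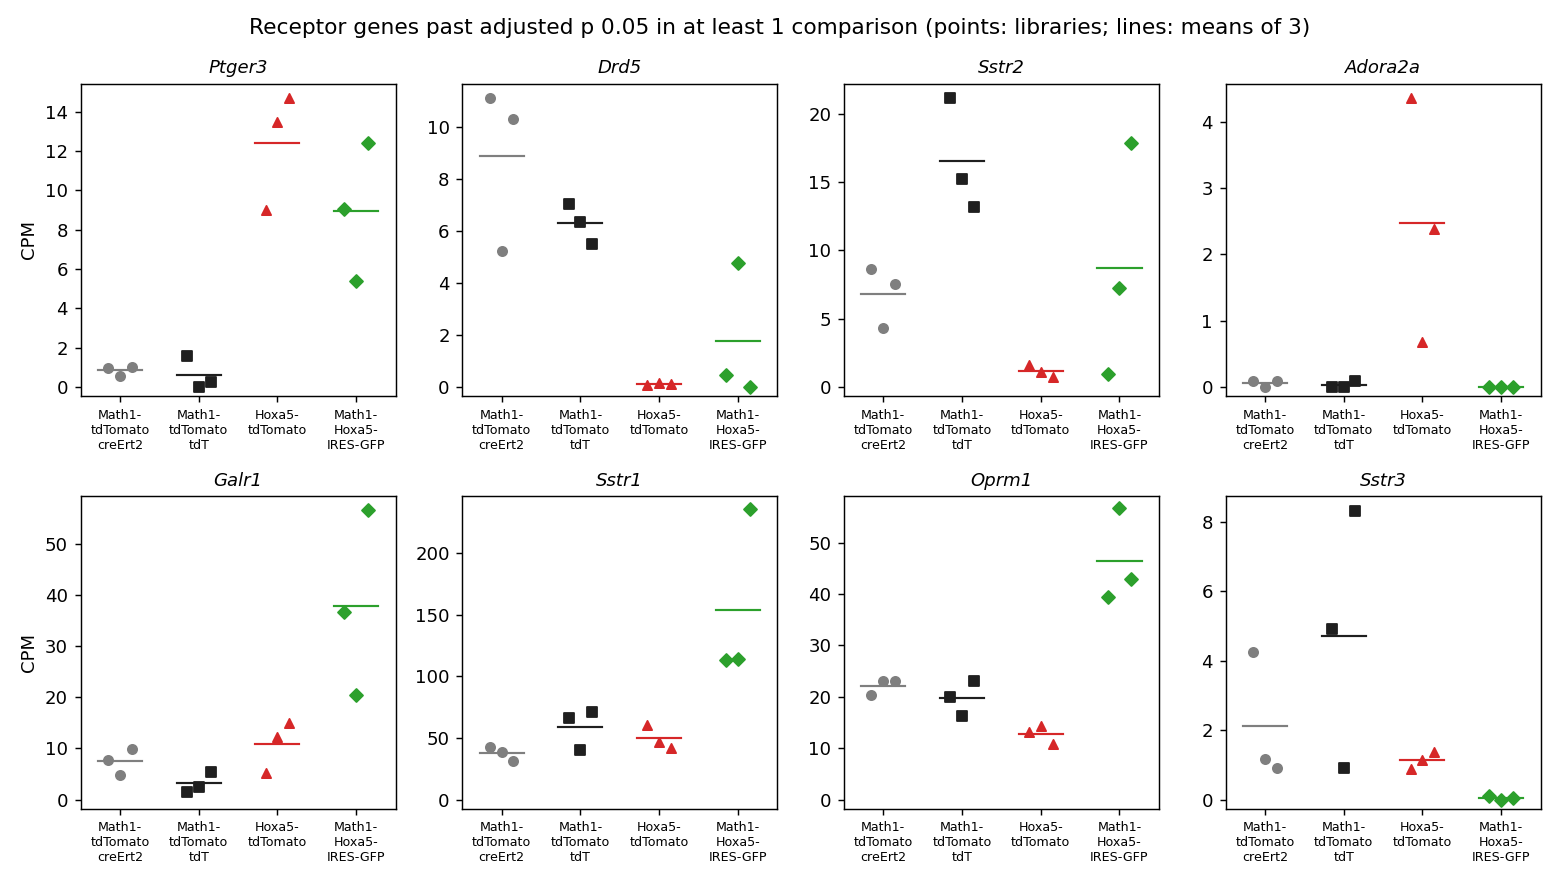
CPM of the 8 receptor genes past adjusted p 0.05 in at least 1 of the 3 labelled comparisons, 1 point per library and a line at the mean of 3. Ptger3 is above all references in both conditions, Drd5 and Sstr2 have their lowest group means in Hoxa5tdTomato, and Galr1, Sstr1 and Oprm1 are highest in Math1Hoxa5-IRES-GFP.

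Adora2a, Cnr1 and Tacr1 did not pass in edgeR's fit against all references in Hoxa5tdTomato. Cnr1 and Tacr1 passed in other fits, and so did Adora2a, by DESeq2 among others. Adora2a, a Gs-coupled adenosine receptor, was at 4.36, 0.673 and 2.38 CPM in Hoxa5tdTomato, at 0 to 0.0906 CPM in the references, where it had 4 counts in all, and at 0 in the 3 Math1Hoxa5-IRES-GFP libraries. It passed the filter on low counts only through the Hoxa5tdTomato libraries, the one receptor gene tested with libraries above the cutoff in a single group. Its tests therefore depend on the level tested, and its values stand as a description. Hoxa5tdTomato had 85 counts in all, 49 of them in library 1. Cnr1 was at 505, 713 and 707 CPM in Hoxa5tdTomato and at 705 to 1140 CPM in the references, a difference of -0.58 ± 0.19 log2 units (adjusted p = 0.140). Tacr1, the Gq-coupled NK1 receptor for substance P, was named after its values were seen. It was at 4.36, 3.64 and 6.50 CPM in Hoxa5tdTomato and at 14.7 to 43.6 CPM in the references, a difference of -2.16 ± 0.87 log2 units (edgeR, adjusted p = 0.236). In Math1Hoxa5-IRES-GFP it was at 8.94, 3.28 and 0 CPM, also below every reference, a difference of -2.4 ± 0.87 log2 units (edgeR, adjusted p = 0.173). A further edgeR fit held only the 3 Hoxa5tdTomato and 3 creErt2 reference libraries. In it Cnr1 (-0.65, adjusted p = 0.00149), Tacr1 (-1.94, 0.00280), Sstr2 (-2.55, 0.0236) and Ptger3 (3.91, 0.000202) passed, of 30 receptor genes tested, while 7.19% of all genes were called. Drd5 (-6.21, 8.23e-05) was also called. It passed the filter there only through the creErt2 references, where it is high, and is not read against that share. The same 5 genes passed, of 37 tested, when the split fit left out Math1Hoxa5-IRES-GFP library 3, where 2.43% of all genes were called. Drd5 again passed the filter through libraries other than Hoxa5tdTomato. Which receptor genes passed in Hoxa5tdTomato therefore changed with a library that is in neither group compared.

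Summed markers of several other cell types were higher in the Hoxa5tdTomato libraries than in the references. The 15 endothelial markers summed to 251, 168 and 307 CPM there, against 4.03 to 44.9 CPM in the references and 8.48, 70.0 and 10.6 CPM in Math1Hoxa5-IRES-GFP, and 3 of the 14 tested were called higher in Hoxa5tdTomato (Eng, Slc2a1 and Esam). The 12 pericyte and mural markers summed to 124, 125 and 252 CPM, against 3.89 to 31.1 CPM in the references and 25.5, 66.9 and 6.07 CPM in Math1Hoxa5-IRES-GFP, with 3 of 11 called higher (Anpep, Rgs5 and Abcc9). Anpep was at 0 in the references, and Erg and Egfl7 were at 0 in Math1Hoxa5-IRES-GFP. Meningeal markers summed to 9.78 to 15.2 CPM in Hoxa5tdTomato and 0.729 to 3.99 CPM in the references, and oligodendrocyte lineage markers to 160 to 207 CPM and 89.8 to 152 CPM. Microglia markers summed to 7.88 to 57.7 CPM in Hoxa5tdTomato and 0.321 to 15.3 CPM in the references, ranges that overlap. Noradrenergic markers went the other way, at 2.9 to 4.36 CPM in Hoxa5tdTomato and 4.53 to 23.6 CPM in the references. Sums of astrocyte and radial glia, serotonergic, GABAergic and glycinergic, cholinergic, dividing cell, and choroid and ependyma markers overlapped those of the references. The 11 pontine neuron markers summed to 4590 to 5070 CPM in Hoxa5tdTomato and to 6530 to 8760 CPM in the references, none of the 11 at 0 in any group, and the 9 pan-neuronal markers to 10000 to 10600 CPM and 11500 to 13600 CPM. In sorted populations such as these, fewer cells of a type and less RNA per cell cannot be told apart. By library, Ptger3 and the endothelial sum were at 8.98 and 251, 13.5 and 168, and 14.7 and 307 CPM in Hoxa5tdTomato. In Math1Hoxa5-IRES-GFP they were at 9.03 and 8.48, 5.40 and 70.0, and 12.4 and 10.6 CPM. The part of these cells in the levels of Ptger3, Adora2a, Drd5, Sstr2, Cnr1 and Tacr1 was not tested.

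**Figure D3:**
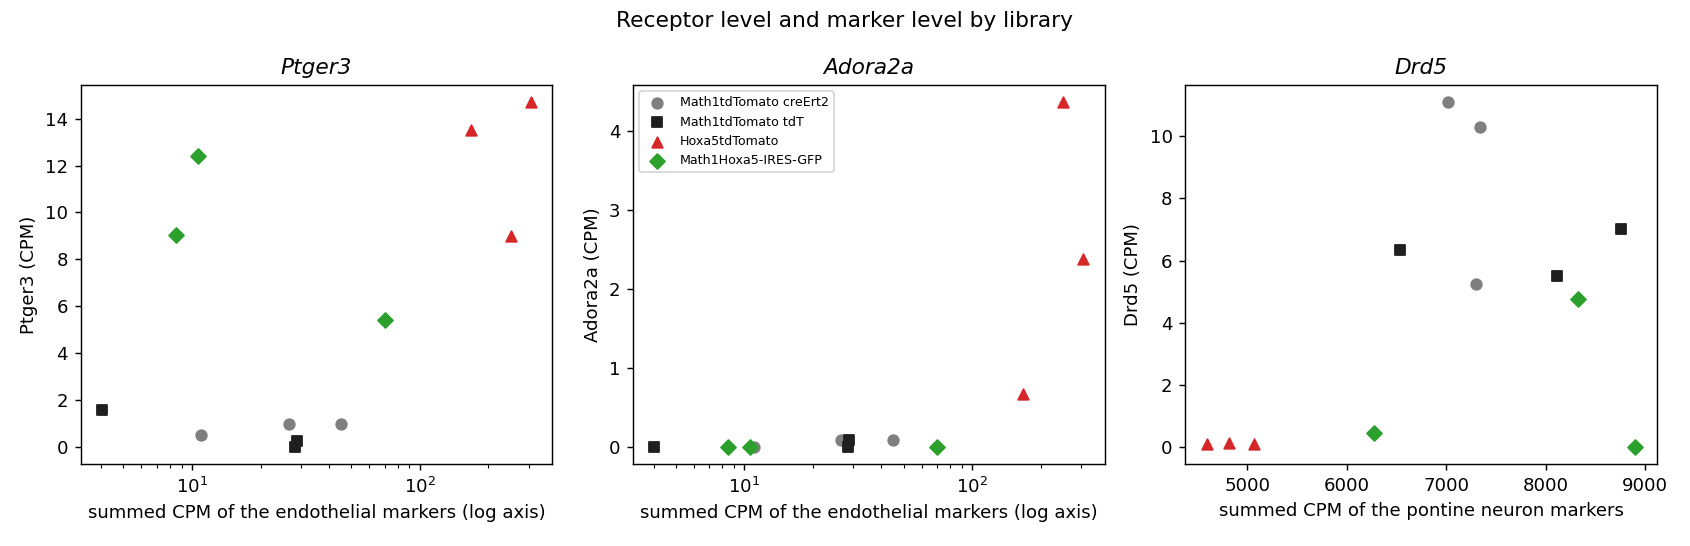
Level of 3 receptor genes (CPM) against the summed CPM of the endothelial markers (log axis, Ptger3 and Adora2a) or of the pontine neuron markers (Drd5), 1 point per library. The 3 Hoxa5tdTomato libraries stand apart on both marker sums. The Math1Hoxa5-IRES-GFP libraries, with endothelial sums of 8.48, 70.0 and 10.6 CPM, have Ptger3 at 9.03, 5.40 and 12.4 CPM.

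In the libraries labelled Math1Hoxa5-IRES-GFP, 4 receptor genes were higher than in the Math1tdTomato reference (the galanin receptor Galr1, the somatostatin receptor Sstr1, the opioid receptor Oprm1 and Ptger3) and 1 was lower (the somatostatin receptor Sstr3). These were 5 of 38 receptor genes, against 1.84% of all genes; 1.3% of all genes were higher and 0.543% lower. The median fitted log2 difference was -0.31 for the receptor genes and -0.0018 for all genes. At an unadjusted edgeR p under 0.05 there were 18 of the 38, against 16.7% of all genes. With the references split there were also 18, against 13.7% of all genes. Against the tdT references in the split fit, 3 of the 5 passed (Galr1, Sstr1 and Sstr3), with 0.862% of all genes called. DESeq2, against all references, called these 5 and 7 more (Adra2a, Drd2, Htr1a, Htr4, Htr5b, Htr7 and Tacr1), 12 of 41 receptor genes it tested against 6.39% of all genes. None passed among 27 receptor genes tested in a fit of these 6 libraries alone, in which 0.0746% of all genes were called. With library 3 left out of the split fit, Galr1, Oprm1, Sstr3 and Sstr4 passed, 4 of 37 tested, against 2.43% of all genes.

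Galr1, a Gi-coupled galanin receptor, was at 36.7, 20.5 and 56.5 CPM in Math1Hoxa5-IRES-GFP, above every other library. The references were at 1.53 to 9.87 CPM, with a median of 5.14 CPM, and Hoxa5tdTomato at 5.16, 12.3 and 14.9 CPM. The difference from the reference was 2.84 ± 0.51 log2 units (edgeR, adjusted p = 0.00684), and 3.59 ± 0.61 against the tdT references (adjusted p = 0.00821). The call held whichever of the 12 libraries was left out. Galr2, the other galanin receptor tested, was at 0.624, 0 and 0.103 RPKM in Math1Hoxa5-IRES-GFP and at 0.724 to 3.25 RPKM in the references, without passing (adjusted p = 0.332). Galanin itself (Gal) was at 0 to 2.75 CPM in the references and at 0.745, 4.63 and 0 CPM in Math1Hoxa5-IRES-GFP.

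Sstr1 was at 113, 114 and 236 CPM in Math1Hoxa5-IRES-GFP and at 31.1 to 71.2 CPM in the references, with a median of 41.5 CPM. Hoxa5tdTomato libraries, at 60.9, 47.0 and 41.7 CPM, lay within the references. The difference between Math1Hoxa5-IRES-GFP and the reference was 1.67 ± 0.28 log2 units (edgeR, adjusted p = 0.00391) and 1.38 ± 0.31 against the tdT references (adjusted p = 0.0435). The call against all references held without any 1 library; in the split fit without library 3 the difference was 0.94 ± 0.25 (adjusted p = 0.0583).

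Oprm1, the Gi-coupled mu opioid receptor, was at 39.4, 56.7 and 42.9 CPM in Math1Hoxa5-IRES-GFP, at 16.2 to 23.1 CPM in the references with a median of 21.7 CPM, and at 13.2, 14.3 and 10.9 CPM in Hoxa5tdTomato. The 3 groups did not overlap. The difference between Math1Hoxa5-IRES-GFP and the reference was 1.15 ± 0.25 log2 units (edgeR, adjusted p = 0.0228; 0.0751 against the tdT references; 0.0803 without Math1Hoxa5-IRES-GFP library 2 0.0537 without creErt2 reference 1; 0.0588 with library sizes in place of TMM), and that between Hoxa5tdTomato and the reference was -0.71 ± 0.27 (adjusted p = 0.212). Exons of Oprm1 overlap those of Ipcef1 on the opposite strand in GENCODE M21. Oprl1, the nociceptin receptor, did not pass in either comparison.

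Sstr3, a Gi-coupled somatostatin receptor found on neuronal cilia, was at 0.0931, 0 and 0.0502 CPM in Math1Hoxa5-IRES-GFP, with 3 counts over the group. The references ranged from 0.906 to 8.32 CPM with 423 counts in all, and Hoxa5tdTomato libraries were at 0.889, 1.14 and 1.37 CPM. The ratio of Math1Hoxa5-IRES-GFP to the reference was 0.0119, with a 95% interval from 0.00245 to 0.0351 that covers counting error only, and the edgeR adjusted p was 0.0288 (0.0435 against the tdT references). The call was lost without Math1Hoxa5-IRES-GFP library 2 or 3, creErt2 reference 1 or tdT reference 3 (adjusted p from 0.0536 to 0.0654). Sstr1 rose and Sstr3 fell in Math1Hoxa5-IRES-GFP, and Sstr2 fell in Hoxa5tdTomato. Sstr4, chosen here after its values were seen, was at 8.54, 2.56 and 8.78 CPM in Hoxa5tdTomato and at 0 to 7.37 CPM in the references (adjusted p = 0.546), and Sstr5 had counts in 1 library only.

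**Figure D4:**
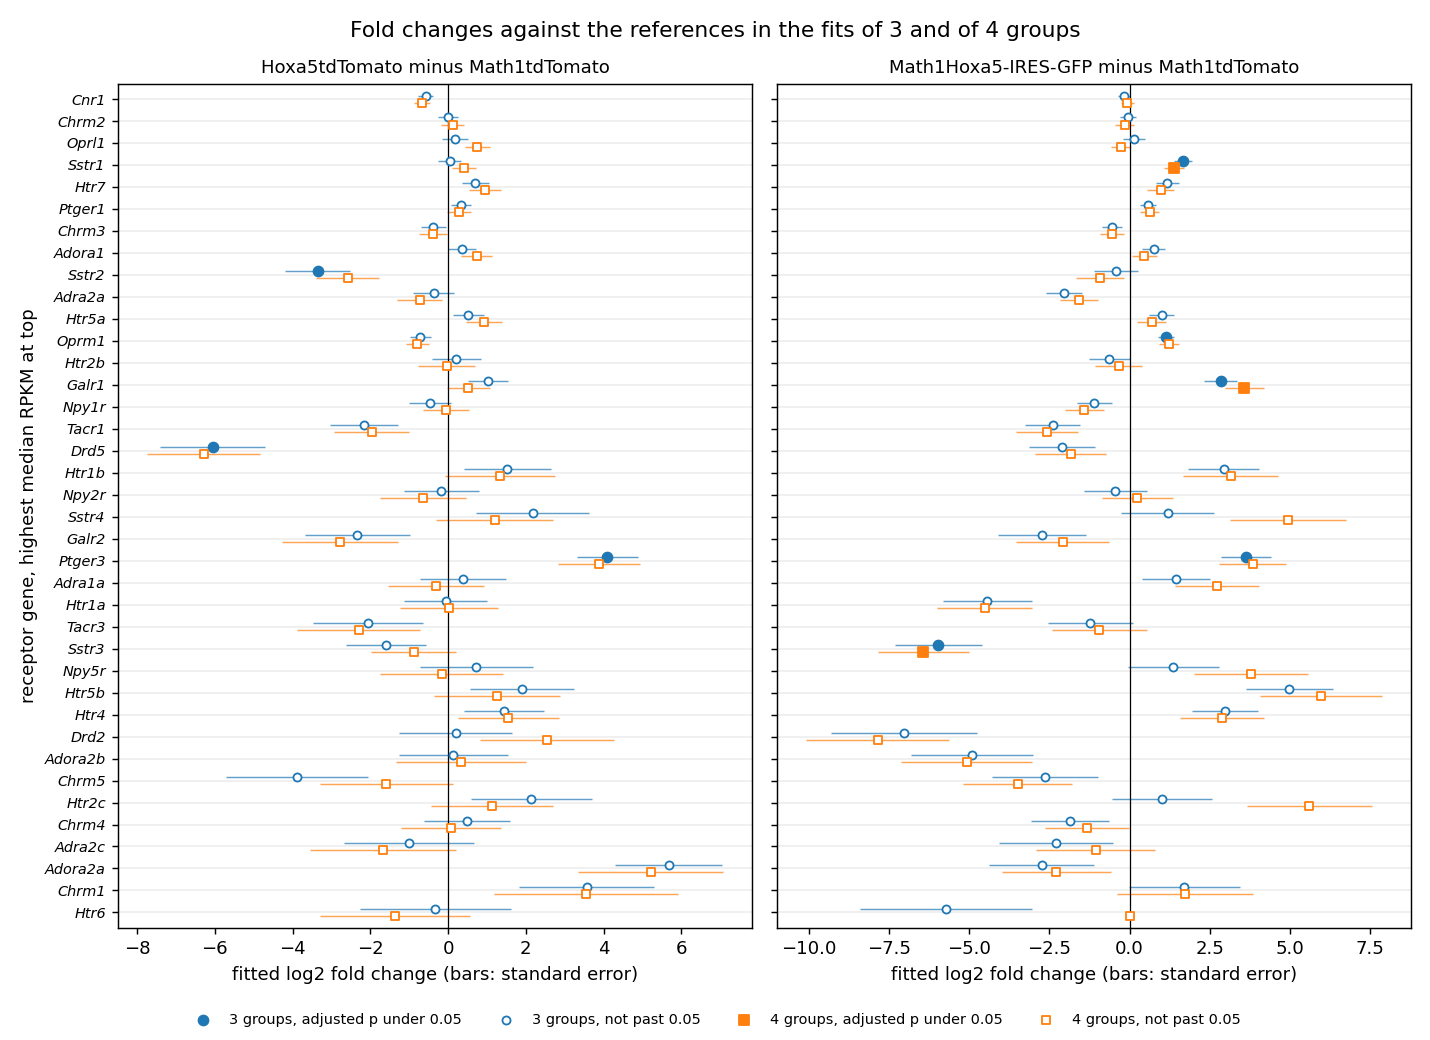
Fitted log2 fold change against the references, with its standard error, for the 38 receptor genes tested, in the fit of all references as 1 group (circles) and with creErt2 and tdT references apart (squares); filled symbols passed adjusted p 0.05. Filled squares appear only for Sstr1, Galr1 and Sstr3 on the right, and fitted values of genes at or near 0 in a group, such as Sstr3, Drd2, Adora2a and Htr6, depend on the prior count.

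Set against each other, Hoxa5tdTomato was lower than Math1Hoxa5-IRES-GFP for Oprm1 and Sstr1, while 2.43% of all genes were lower. The fit also called Adora2a, which passed the filter on low counts only through Hoxa5tdTomato and is therefore described by its counts and not read against the 0.916% of all genes called higher or the 3.35% called in all. DESeq2 called 10 of 42 receptor genes it tested, against 10.3% of all genes, and Adora2a is 1 of these 10. Oprm1 differed by -1.86 ± 0.31 log2 units (edgeR, adjusted p = 0.0223) and Sstr1 by -1.63 ± 0.35 (adjusted p = 0.0277), and both passed in the split fit too (0.00248 and 0.00545). Adora2a, with 85 counts against 0, was at least 48.7-fold higher against a floor of 3 counts over the group. Of these counts 49 were in Hoxa5tdTomato library 1, and the bound without it was 29.6-fold. The calls of Oprm1 and Sstr1 were lost without any 1 Hoxa5tdTomato library (adjusted p from 0.0792 to 0.134), and that of Sstr1 also without Math1Hoxa5-IRES-GFP library 3 (0.0600) or with library sizes in place of TMM (0.0539). The split fit added Sstr2 (-2.93, adjusted p = 0.0381) to Oprm1 and Sstr1, of 38 tested, while 8.08% of all genes were called. Without Math1Hoxa5-IRES-GFP library 3 it called Drd5, Oprm1 and Sstr1, of 37 tested, while 9.1% of all genes were called. Both fits also called Adora2a, which is not read against these shares. These values also hold any difference between the column-name sets. Between creErt2 and tdT references no receptor gene passed (edgeR, 0 calls), while 1.34% of all genes did. At an unadjusted edgeR p under 0.05 there were 6 of 38, against 12.9% of all genes. DESeq2 called 1 of 37, Htr2c, against 4.54% of all genes. The split fit's assignment of creErt2 references to Hoxa5tdTomato and of tdT references to Math1Hoxa5-IRES-GFP is an assumption. The difference between the 2 conditions was taken with each against the references so assigned. By edgeR it gave 0 calls among the receptor genes and 0% among all genes. At an unadjusted edgeR p under 0.05 there were 9 of 38, against 8.02% of all genes. DESeq2 called 3 of 46, namely Drd2, Galr1 and Oprm1, against 0.479% of all genes. A difference in response between the conditions was therefore not shown by edgeR, and the calls by DESeq2 were not repeated in edgeR's fit. The lowest edgeR adjusted p among the 8 genes shown by library was 0.317, for Oprm1, whose difference of differences was -2.02 ± 0.42 log2 units.

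In edgeR's fit of all references as 1 group, most receptor families had no member past the threshold in either comparison with the reference. None of the 12 serotonin receptors, 9 of them tested, was called in that fit, while DESeq2 called Htr1a, Htr4, Htr5b and Htr7 in Math1Hoxa5-IRES-GFP. Htr7, the serotonin receptor with the highest median, averaged 15.3 ± 4.66 RPKM in Math1Hoxa5-IRES-GFP (SD, n = 3) and 6.76 ± 3.12 RPKM in the references (n = 6; adjusted p = 0.0948). Htr5b, a rodent serotonin receptor, was at 4.25, 0 and 8.49 RPKM in Math1Hoxa5-IRES-GFP and at 0 to 0.310 RPKM in the references (adjusted p = 0.0724), with 1 library of 3 at 0. None of the 9 adrenoceptors was called in edgeR's fit, and DESeq2 called Adra2a in Math1Hoxa5-IRES-GFP; it was at 9.41, 6.88 and 1.10 CPM in Math1Hoxa5-IRES-GFP and at 9.13 to 34.5 CPM in the references (adjusted p = 0.0763). The muscarinic receptors Chrm2 and Chrm3 stayed within the range of the references or close to it in both conditions, and no receptor for neuropeptide Y or tachykinins passed in edgeR's fit of all references, where Tacr1 in Math1Hoxa5-IRES-GFP had an adjusted p of 0.173 (0.0329 by DESeq2). Among the 22 genes not tested, single libraries held most counts of those named here after their values were seen. Cnr2, the CB2 cannabinoid receptor, had 32 counts in Hoxa5tdTomato library 3, 3 in library 1 and 0 in the other 10 libraries. Drd4, a Gi-coupled dopamine receptor, had 43 counts in Math1Hoxa5-IRES-GFP library 3 and at most 4 in any other. Adra1b, a Gq-coupled adrenoceptor, had 86 in tdT reference 2 and at most 24 elsewhere.

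Among genes that make or carry the signal, 118 were tested in 16 lists of ligands, G protein subunits, cyclases, kinases, channels and enzymes. In Hoxa5tdTomato 3 of them were higher and 1 lower than in the reference, and in Math1Hoxa5-IRES-GFP 5 were higher and 1 lower. Over all genes tested, 0.842% were higher and 0.889% lower in the first comparison, and 1.3% higher and 0.543% lower in the second. Sst, the somatostatin gene, fell in both: it was at 48.0 to 67.7 CPM in the references, at 17.5, 24.4 and 11 CPM in Hoxa5tdTomato and at 15.6, 6.57 and 30 CPM in Math1Hoxa5-IRES-GFP, with differences of -1.68 ± 0.39 (edgeR, adjusted p = 0.0366) and -1.70 ± 0.39 log2 units (adjusted p = 0.0296). With the references split the adjusted p values were 0.172 and 0.0643. Plcb1, a phospholipase C beta that acts below Gq, rose in both and also with the references split: it was at 51.1 to 83.3 CPM in the references, at 124, 124 and 96.7 CPM in Hoxa5tdTomato (0.84 ± 0.19 log2 units, adjusted p = 0.0360; 0.0354 split) and at 140, 112 and 169 CPM in Math1Hoxa5-IRES-GFP (1.13 ± 0.19, adjusted p = 0.00449; 0.0435 split). The conditions share their references in the first of these fits. Gng11, a G protein gamma subunit, and Rgs5, a regulator of G protein signalling that is also a pericyte marker, were the other 2 called in Hoxa5tdTomato, by 5.92 ± 1.45 and 3.5 ± 0.83 log2 units (adjusted p = 0.0468 and 0.0421; 0.340 and 0.261 split).

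In Math1Hoxa5-IRES-GFP the further genes called higher were Adcy1, a calcium-activated adenylyl cyclase (1.35 ± 0.21 log2 units, edgeR adjusted p = 0.00246), Prkacb, a catalytic subunit of protein kinase A (0.78 ± 0.13, 0.00412), Gnal, the alpha subunit of Golf (1.05 ± 0.24, 0.0269), and Gnao1, that of Go (0.60 ± 0.15, 0.0492). Adcy1 was at 646, 442 and 298 CPM there and at 121 to 252 CPM in the references, and Prkacb at 529, 669 and 495 CPM against 277 to 376 CPM. Both passed with the references split (0.0186 and 0.0164), and Gnal and Gnao1 did not (0.157 and 0.131). Gnao1 itself differed between the 2 reference sets by -0.54 ± 0.10 log2 units (adjusted p = 0.0169). The lists for GIRK channels, receptor kinases and arrestins, cyclic AMP phosphodiesterases, monoamine and acetylcholine synthesis, prostaglandin E2, endocannabinoids and adenosine held no called gene in either comparison with the reference.

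**Figure D5:**
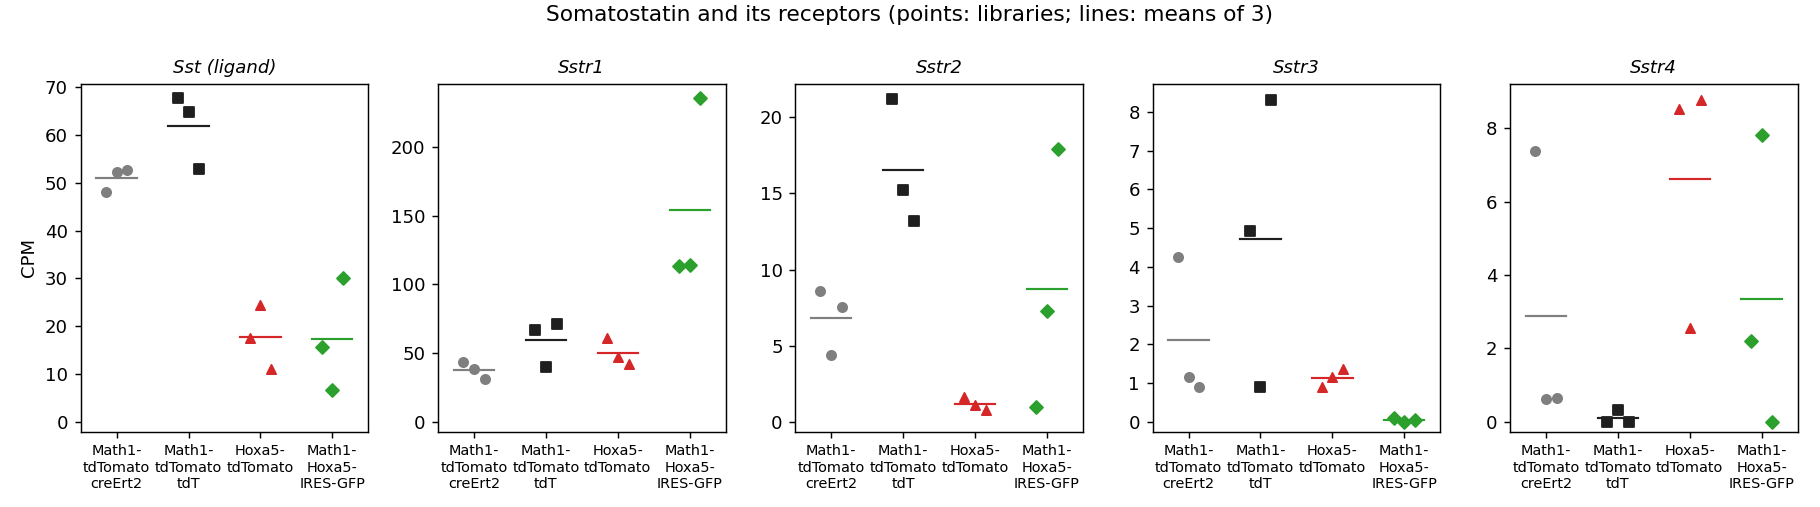
CPM of somatostatin and of the 4 somatostatin receptor genes tested, 1 point per library and a line at the mean of 3. Sst is below all references in both conditions, Sstr2 is at 1.60 CPM or less in Hoxa5tdTomato, and Sstr1 is above 110 CPM and Sstr3 at 0.0931 CPM or less in Math1Hoxa5-IRES-GFP.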

How the data were processed

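RNA of 1000 cell equivalents per replicate was SPIA-amplified and sequenced, per the labels' protocols. The authors deposited raw counts per gene for 12 libraries in 1 table, beside gene lengths and without normalization. Base calling with bcl2fastq 1.8.4 and build mm10 are named per the submitters' processing notes; for the aligner, counter, annotation and strand, no setting is given in the sources used here. The table's 15 rows with a gene ID but no symbol stayed in the fit and are not named. The 6 reference columns were used as a group, since their numbers do not match the labels' numbers.

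From these counts, 14732 genes were kept by filterByExpr (minimum count 10), scaled by TMM and tested with edgeR 4.0.16 (quasi-likelihood F test, R 4.3.3, common dispersion 0.312) over all 12 libraries in 3 groups, with Benjamini-Hochberg adjustment over all genes and a threshold of 0.05. A fit of 4 groups, with creErt2 and tdT references apart, DESeq2 1.42.0 and other alternatives are given in the closing section. The test was checked on simulated counts. Fold changes are log2 with standard errors. Floors are 3 counts; intervals (95%, exact binomial) cover counting error only, since amplified reads are not independent molecules. Nothing says that replicates came from separate embryos, so p-values measure the spread between these samples, which may be technical. The members, gene lists and naming rule were chosen with earlier results of these data known. Named are Hoxa5, each receptor gene past 0.05 in 1 of 3 comparisons, the 10 with the highest median RPKM, those at 0 throughout, and called pathway genes, at most 3 a list. RefSeq promoter windows and gene positions are of GRCm38.p6. Protein sequences were not used here.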

Additional observations from a re-analysis of the deposited data

Results flagged for a closer look

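Among the 6 reference libraries, 48 genes were examined for 1 library far from the other 5. By chance the rule marks about 1 in 20 such groups where values are normally distributed. Skewed CPM values near 0, as in several genes below, are not, and that rate does not hold for them. In the following 8 genes 1 library stood far from the rest. Tacr1 was at 43.6 CPM in 1 reference and at 14.7 to 20.4 CPM in the others. Sstr4 was at 7.37 CPM in 1 and at most 0.634 CPM in the others. Chrm5, the M5 muscarinic receptor, was at 8.42 CPM against at most 1.97 CPM. Drd2 was at 3.80 CPM against at most 0.927 CPM, Adra2c, the alpha2C adrenoceptor, at 3.62 CPM against at most 0.906 CPM, and Htr2c, a Gq-coupled serotonin receptor, at 2.84 CPM against at most 0.272 CPM. Gng11 was at 0.355 CPM against at most 0.0906 CPM. Tacr3, the receptor for neurokinin B, was low in 1 library at 0.143 CPM, against at least 1.60 CPM in the others. No cause was tested.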

How the results depend on the processing

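Over the 5 counts of receptor genes called and all alternatives, no called difference changed sign. Against the reference, Hoxa5tdTomato gave 3 calls; the count was 0 in the fit of 4 groups and with a replicate block, 5 in a fit of 6 libraries, Hoxa5tdTomato and the creErt2 references, 5 in the fit of 4 groups without Math1Hoxa5-IRES-GFP library 3 (an alternative chosen after seeing the data), and 0 to 5 when 1 library was left out, 0 without any 1 Hoxa5tdTomato library. Math1Hoxa5-IRES-GFP gave 5; the count was 12 by DESeq2, 3 in the fit of 4 groups, 0 in a fit of 6 libraries with the tdT references, 1 with the replicate block, and 3 to 6 with 1 library left out. Between the conditions there were 3, Adora2a among them; the count was 10 by DESeq2, 1 with library sizes in place of TMM, and 0 to 3 with 1 library left out. Between the reference sets 0 became 1 by DESeq2 and 0 to 1 with 1 library left out, and the difference of differences went from 0 to 3 by DESeq2, staying at 0 with 1 library left out. The cause was not tested, except that fits of fewer libraries hold fewer samples. Of the recomputed counts, 72 stayed within 1.5 times and 26 did not. Same-numbered libraries were not paired: correlations of their deviations ran from -0.0453 to 0.0441. Galr1 in the block fit was the 1 receptor gene called in Math1Hoxa5-IRES-GFP. Ranked by CPM in place of RPKM, 8 of the 10 highest receptor genes were shared. At 3 counts, 0.107 to 0.274 CPM, the lowest levels are not resolved, and the 22 receptor genes below the filter were not tested.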
